A study of Mus musculus with 24 samples.

Results

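The progenitor to neuron step in a wildtype embryonic stem (ES) cell line of mixed 129Sv-C57Bl/6 strain was measured on 4 of the 24 arrays of the series: 2 of neuronal progenitors (NP) and 2 of terminal neurons (TN), titled 2_NPwt_a, 2_NPwt_b, 2_TNwt_a and 2_TNwt_b. These are all the NP and TN arrays of this line, and they share a 6-array table with 2 arrays of its undifferentiated ES cells. All 6 arrays carry the genotype wildtype, with no REST allele altered, and the NP and TN cells were taken through the embryoid body and retinoic acid protocol of Bibel and colleagues. The other 18 arrays, on another array type, hold the same stages of RESTko cells and of RESTwt or RESThet controls of the strain Black Agouti 129, with 3 arrays a group. The letters a and b are labelled biological replicates, but nothing says that they came from separate cultures, so p-values measure only the spread between these arrays, which may be technical.

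In this protocol ES cells are aggregated without adhesion, exposed to retinoic acid and plated as a rather uniform population of Pax6-positive progenitors that resemble radial glia. Radial glia are the dividing cells of the embryonic neural tube, held in the cycle by Notch signalling, and proneural factors such as the neurogenins push them to leave it. The neurons that the protocol yields are known to be mostly glutamatergic. They build synapses, ion channels and an axonal cytoskeleton after their last division.

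The deposited values are log2 signals per probe set, with array medians between 3.83 and 3.95 over all probe sets. Each gene was represented by its brightest probe set, which left 18193 genes. The Pearson correlation across genes was 0.994 between the NP arrays and 0.993 between the TN arrays, and 0.842 to 0.853 between an NP and a TN array. A gene is named called where limma, fitted to the 6 arrays, gave a Benjamini-Hochberg adjusted p under 0.05. Dim probe sets read 2 to 4 on this scale and the files hold no detection call, so a fold against such a value is likely to understate the change, and a low signal is not absence. Fewer cells of a type and less RNA per cell cannot be told apart in these bulk samples.

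Of the 18193 genes, 9241 (50.8%) were called, 3954 (21.7%) higher and 5287 (29.1%) lower in TN. At least 2-fold differences were called higher for 2449 genes (13.5%) and lower for 2952 (16.2%). The median difference over all genes was -0.09 and the median absolute difference 0.44 on the log2 scale, against a median standard error (SE) of 0.15. For 13190 genes (72.5%) the NP and TN arrays did not overlap. A group of 98 genes went from an NP mean under 4 to a TN mean over 8, and 80 of these also had an ES mean under 4. The opposite path, from over 8 to under 4, was taken by 30 genes, of which 16 had an ES mean over 8 and 6 an ES mean under 4. Counts of list members are to be read against these shares.

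**Figure D1:**
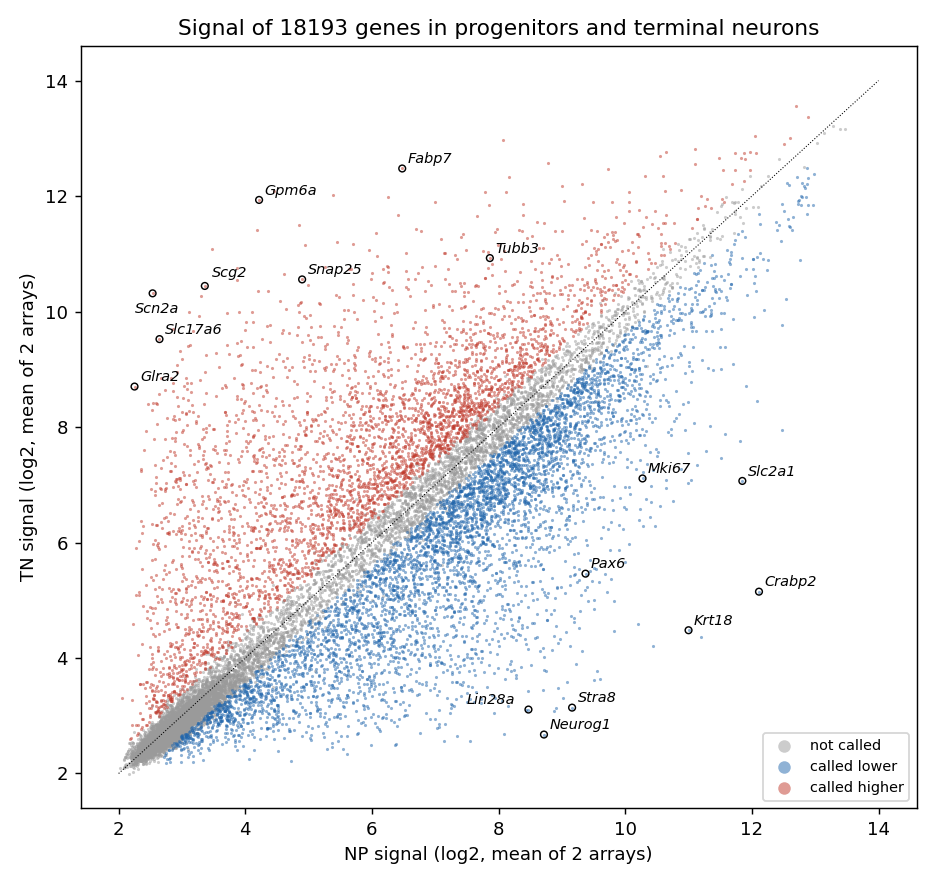
Mean log2 signal of each of the 18193 genes on the 2 NP arrays (x axis) and the 2 TN arrays (y axis), coloured by whether limma called the gene higher (red) or lower (blue) in TN or not (grey), with the dotted line at equal signal. The labelled genes are among those described in the text, with Scn2a and Gpm6a far above the line and Crabp2 and Neurog1 far below it.

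The labels were held against markers. All 6 neuronal markers (Tubb3, Map2, Rbfox3, Dcx, Snap25 and Syt1) were called higher in TN. Tubb3, the neuronal beta-tubulin, read 7.63 and 8.10 in NP and 10.68 and 11.17 in TN, a difference of 3.06 (SE 0.21, adjusted p = 3.00e-06). The nuclear splicing factor Rbfox3, the NeuN antigen, read 6.13 and 6.51 in NP and 10.36 and 10.39 in TN. Both already stood above their ES means of 6.48 and 4.74 in NP. Of the 6 progenitor markers 5 were called lower. Pax6, the transcription factor that defines this progenitor, read 9.28 and 9.47 in NP and 5.39 and 5.53 in TN, a 15.1-fold fall (adjusted p = 2.06e-06), from an ES mean of 4.50. The fall was smaller for Nes, the nestin filament protein (-1.24), for Sox2 (-1.19), which still read 8.40 and 7.45 in TN, and for Hes5 (-1.23). The sixth marker, Fabp7, the brain fatty acid binding protein of radial glia and astrocytes, went the other way, from 6.02 and 6.94 in NP to 12.68 and 12.28 in TN, 64.0-fold higher (adjusted p = 1.25e-06). Among ES markers, Pou5f1 read 3.33 and 3.54 in NP against an ES mean of 11.27, and Nanog 3.21 and 2.86 against 10.43. Neither was called in the step, whereas Zfp42 was called lower (-0.91) and Esrrb higher (2.32). The other probe sets of Esrrb differed by 0.11 and 0.26.

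**Figure D2:**
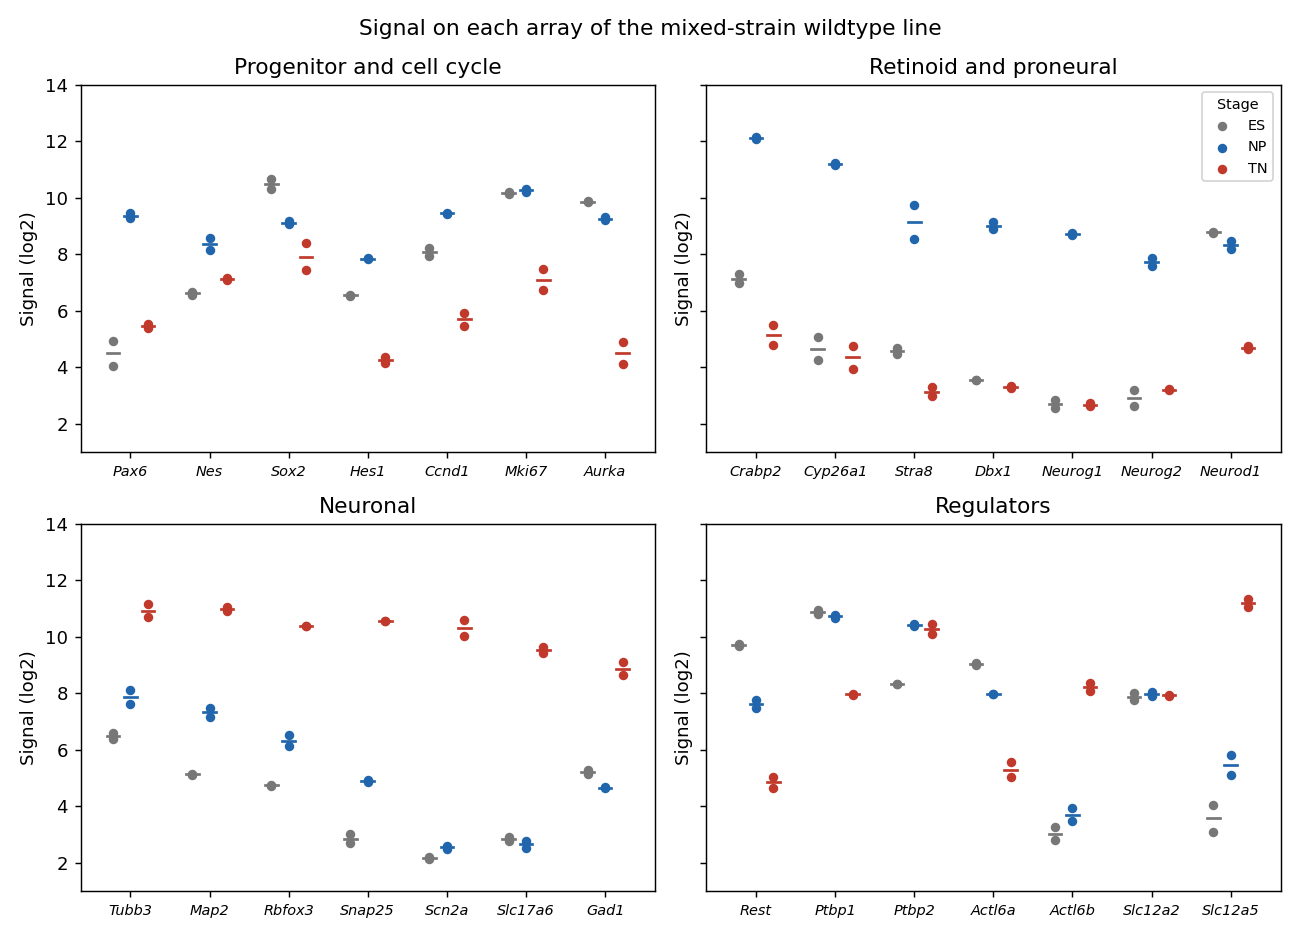
Log2 signal on each of the 6 arrays for 28 genes in 4 panels, with grey points for ES, blue for NP and red for TN, 2 arrays each, and a short line at the mean. Pax6 and the retinoid and proneural genes Crabp2, Cyp26a1, Stra8, Dbx1, Neurog1 and Neurog2 stand high in NP alone, and the neuronal genes stand highest in TN.

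Genes of the cell cycle fell almost without exception. Of 31 measured genes of mitosis 31 were called lower, with a median difference of -4.05, and of 28 genes of DNA replication 27 were lower and none higher, with a median of -3.30, both set against a median of -0.09 over all genes. Kif20a, a kinesin of cytokinesis, fell by 4.93 on the log2 scale, from 8.78 and 8.67 to 3.90 and 3.69. Aurka, the centrosomal Aurora A kinase, read 9.32 and 9.22 in NP and 4.91 and 4.13 in TN, 26.9-fold lower (adjusted p = 3.60e-07). The spindle checkpoint kinases Bub1 (-4.68) and Ttk (-4.62) and the mitotic cyclin Ccnb2 (-4.33) moved as far. The proliferation antigen Mki67 fell less, from 10.23 and 10.32 to 7.47 and 6.75. On all these genes the TN arrays lay below both NP arrays, and TN array b lay below TN array a. In replication, the helicase subunits Mcm3 (-4.42) and Mcm2 (-4.01), the helicase cofactor Cdc45 (-3.92) and Uhrf1 (-3.93), which guides maintenance methylation, fell the most.

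The promoters of genes of mitosis often carry a CHR element, with the letters TTTGAA, and CCAAT boxes, the former known for repressing them outside the late cell cycle phases and the latter for binding NF-Y. Both were searched on both strands in RefSeq windows (build GRCm38.p6) from 250 bases before to 50 after each start. The promoters of 3 mitosis genes with large called falls are shown to let the pattern be seen. They were chosen among windows that hold both motifs, so the presence of the motifs in them was fixed by the choice. Capitals mark TTTGAA and CCAAT on either strand, each window is written 5′ to 3′ along its gene, and the motifs do not overlap in them. Aurka lies at chr2:172370521-172370820 on the minus strand, Ttk at chr9:83834439-83834738 on the plus strand and Ccnb2 at chr9:70421505-70421804 on the minus strand.
Aurka: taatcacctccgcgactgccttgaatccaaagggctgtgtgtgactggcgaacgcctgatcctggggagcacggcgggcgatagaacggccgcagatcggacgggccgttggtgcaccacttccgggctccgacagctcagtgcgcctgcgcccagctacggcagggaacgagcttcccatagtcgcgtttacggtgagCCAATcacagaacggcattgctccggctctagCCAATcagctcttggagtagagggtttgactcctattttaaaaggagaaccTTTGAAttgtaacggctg
Ttk: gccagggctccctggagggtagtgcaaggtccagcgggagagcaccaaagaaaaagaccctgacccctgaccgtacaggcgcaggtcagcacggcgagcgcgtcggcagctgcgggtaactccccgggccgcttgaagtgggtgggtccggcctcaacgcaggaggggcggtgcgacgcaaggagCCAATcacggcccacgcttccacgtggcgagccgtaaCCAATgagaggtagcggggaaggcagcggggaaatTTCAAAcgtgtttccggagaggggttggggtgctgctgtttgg
Ccnb2: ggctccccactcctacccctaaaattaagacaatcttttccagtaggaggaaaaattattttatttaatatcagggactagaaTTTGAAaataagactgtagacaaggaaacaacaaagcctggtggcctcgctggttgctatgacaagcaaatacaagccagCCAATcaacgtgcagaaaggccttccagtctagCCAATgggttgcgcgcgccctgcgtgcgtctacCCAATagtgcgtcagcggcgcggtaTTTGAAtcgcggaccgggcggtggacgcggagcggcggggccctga
Aurka and Ttk each hold 1 TTTGAA and 2 CCAAT, and Ccnb2 holds 2 and 3. Windows were found for 26 of the 31 mitosis genes. Of their 28 windows 23 (82.1%) held TTTGAA, against 13.4% of the 18109 windows of all genes tested, and 20 (71.4%) held both motifs, against 5.23%. In the replication list the E2F core TTCCCGC was found in 12 of 28 windows (42.9%), against 6.71% of all windows and none of the mitosis windows. A match is a run of letters and not a shown binding site.

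**Figure D3:**
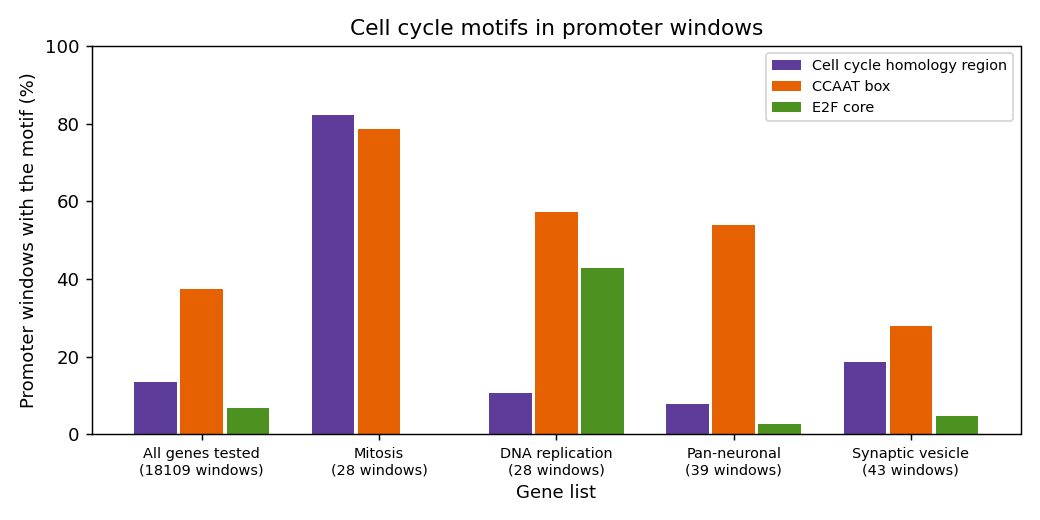
Percent of promoter windows (y axis, from 0) that hold the CHR element (purple), a CCAAT box (orange) or the E2F core (green), for all genes tested and 4 gene lists, with the number of windows under each. The mitosis list stands at 82.1% for the CHR element and the replication list at 42.9% for the E2F core, against 13.4% and 6.71% of all windows.

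Among the genes of the G1 phase and of cell cycle exit, 3 of 20 were higher and 11 lower. The D cyclins, which open the G1 phase, all fell: Ccnd1 by 3.75, Ccnd2 by 3.64 and Ccnd3 by 2.97. Ccnd2 still read 8.46 and 8.43 in TN after 11.97 and 12.21 in NP. The cyclin-dependent kinase inhibitor Cdkn1c, which promotes exit, was also lower (-2.32). Cdk5r1, the activator p35 of the neuronal kinase Cdk5, rose by 4.15 from 6.46 and 6.63 to 10.77 and 10.62, and the pocket protein Rbl2 rose by 1.09.

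The radial glia list had 20 of 29 members lower and 3 higher, with a median of -1.19. Besides Pax6, the RNA-binding protein Lin28a, a block to let-7 maturation, fell from 8.58 and 8.37 to 2.84 and 3.37 (-5.36), and its let-7 target Hmga2 from 10.38 and 10.39 to 6.53 and 6.36 (-3.94). The Hippo pathway factor Tead2 (-3.86) and the apical membrane protein Prom1 (-3.61) fell too. The 3 members that rose were Fabp7, the receptor phosphatase Ptprz1, from 4.80 and 5.04 to 9.36 and 9.08, and N-cadherin, Cdh2 (1.09). Of 23 Notch pathway genes 13 were lower and 4 higher. The target Hes1 fell from 7.84 and 7.87 to 4.35 and 4.15 (-3.60), and Mfng, which modifies the receptor, by 2.37. Dner, a neuronal Notch-related membrane protein, rose from 5.57 and 6.56 to 11.39 and 11.34, and Dtx1 by 3.86.

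Proneural factors were lower in 10 of 18 cases and higher in 3. Neurog1, which drives progenitors to neurons, stood at 8.68 and 8.76 in NP and at 2.73 and 2.62 in TN, beside an ES mean of 2.70. Its difference of -6.04 (SE 0.14, adjusted p = 2.87e-08) is a 65.9-fold fall. Neurog2 fell by 4.51 and the downstream factors Neurod1 and Nhlh2 by 3.62 and 3.91. Neurod1 was high in ES too, with a mean of 8.78. The neuronal splicing activator Srrm4 (1.13) and Ebf3 (1.67) rose. The list of neuronal subtype factors was mixed, with 15 of 36 higher, 8 lower and a median of 0.24. Myt1l, which represses non-neuronal genes, rose from 4.24 and 4.25 to 8.91 and 8.53. Ebf1 (2.78) and Pou4f1 (2.28) rose as well, the latter to 5.43 and 4.50 only, while Gata3 (-2.11) and Prox1 (-2.13) fell.

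The retinoid genes Crabp2 and Cyp26a1 had the largest falls among the genes the naming rule covered. Of 16 members 11 were lower and 1 higher, with a median of -2.59. Crabp2, which carries retinoic acid to its receptors, read 12.15 and 12.07 in NP and 4.80 and 5.50 in TN, 125-fold lower (SE 0.22 on the log2 scale, adjusted p = 5.88e-08), and its ES mean was 7.14. The retinoic acid hydroxylase Cyp26a1 read 11.17 and 11.22 in NP and 3.96 and 4.77 in TN, and Cyp26b1 10.16 and 10.73 and then 4.24 and 4.17. Stra8, a known retinoic acid target of germ cells, fell by 6.02 and the retinol carrier Rbp4 by 5.46. These 5 genes were named for the size of their fall, and all 5 were also lower in ES than in NP. The member called higher was Meis2 (0.86). Whether these values follow the retinoic acid given in the protocol was not tested.

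The patterning genes of the neural tube fell in part. In the dorsoventral list 11 of 19 were lower and 3 higher. Dbx1, of the intermediate neural tube, fell from 9.14 and 8.89 to 3.26 and 3.35 and the floor plate factor Foxa2 from 7.28 and 7.30 to 3.19 and 3.13. Shh rose by 1.19 and Olig2 by 2.48. In the Hox list, 12 of 22 were lower and 3 higher. Hoxb1, of the hindbrain, fell from 7.83 and 6.84 to 2.70 and 2.59 and Hoxb2 from 10.17 and 10.30 to 7.77 and 7.97. Hoxa5 stood high at both stages, at 11.16 and 11.25 in NP and 11.97 and 12.04 in TN (0.80), and Hoxb5 rose by 1.10, against ES means of 3.36 and 3.12. Of 29 signalling targets 19 were lower and 7 higher. The BMP targets Id3 (-3.62) and Smad6 (-4.11) and the hedgehog target Gli1 (-3.20) fell, whereas the FGF targets Spry2 (1.76) and Etv5 (3.09) rose from their low NP level and stayed under their ES means of 7.65 and 10.01.

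**Figure D4:**
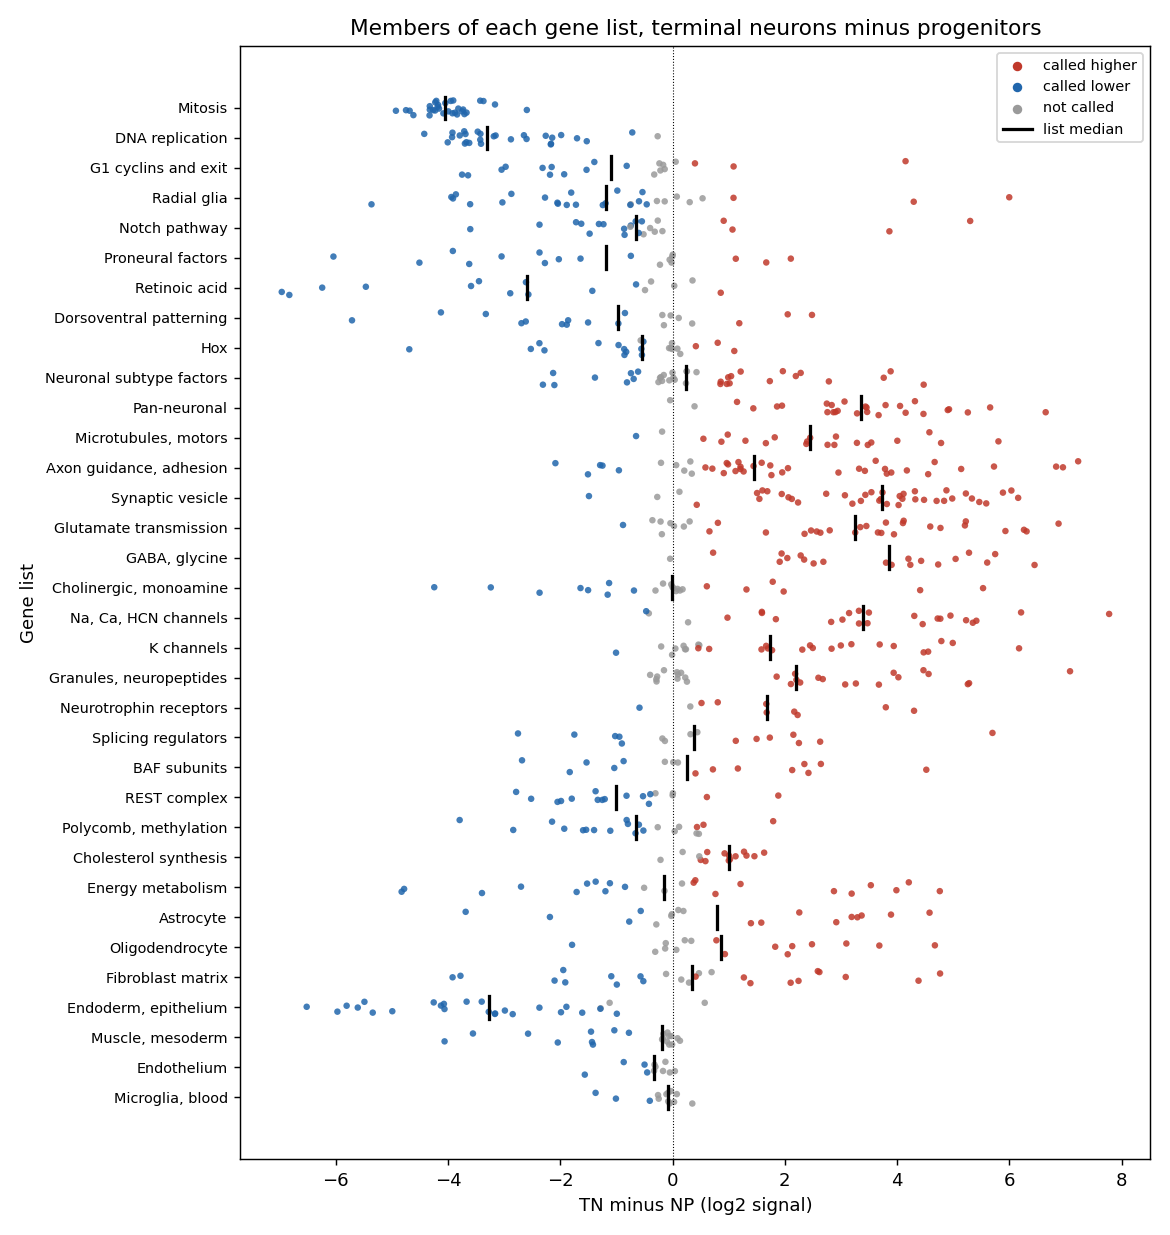
Difference TN minus NP on the log2 scale (x axis) of each measured member of 34 gene lists (y axis), one point a gene, red where called higher, blue where called lower and grey where not called, with a black bar at the list median. The cell cycle and endoderm lists lie to the left and the neuronal and synaptic lists to the right, with medians from -4.05 (mitosis) to 3.85 (GABA and glycine).

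On the other side stood the genes that make a neuron. Of 28 pan-neuronal genes 26 were higher and none lower, with a median of 3.36. Mapt, the axonal protein tau, rose from 4.50 and 5.20 to 11.46 and 11.54 (6.65), Snap25, of the fusion machinery, from 4.94 and 4.85 to 10.54 and 10.57, and Stmn4, a stathmin, by 5.26. The microtubule and motor list had 19 of 21 members higher. Dclk1, a doublecortin-like kinase, gained 5.81, the neuronal kinesin heavy chain Kif5a 4.58 and the microtubule-stabilising Map6 4.78. Kif5b, the widely expressed form of that heavy chain, was the 1 member lower (-0.65), and its call was lost without NP array a (adjusted p = 0.0604) or TN array b (adjusted p = 0.0533). In the axon guidance and adhesion list, 31 of 41 were higher and 5 lower. The adhesion proteins Cntn1 (7.23), Chl1 (6.96) and L1cam (5.73) rose the most together with the ephrin receptor Epha5 (6.83), and the netrin receptor Unc5a fell (-2.09). Outside the lists, the membrane protein Gpm6a rose from 3.92 and 4.52 to 12.12 and 11.74, 210-fold, and the teneurin Tenm2 from 3.13 and 3.10 to 10.04 and 9.94.

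The presynaptic side rose in 37 of 40 measured genes, with a median of 3.73. The synapsins Syn1, from 3.91 and 4.49 to 10.22 and 10.49, and Syn2, from 3.49 and 3.24 to 9.03 and 8.88, tether vesicles. The calcium sensor Syt1 gained 5.47, the vesicle GTPase Rab3c 5.89 and the clathrin assembly protein Snap91 6.04. Sypl, a relative of synaptophysin that is found in many tissues, was the 1 member lower (-1.49). In the dense-core granule and neuropeptide list 17 of 28 were higher and none lower. Scg2, a granin, rose from 3.32 and 3.40 to 10.37 and 10.52 (7.08, SE 0.14, adjusted p = 2.87e-08), 136-fold, and Chga and Pcsk1n rose by 5.26 and 5.28.

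Scg2 is a known target of REST, the repressor of neuronal genes after which the series is named, which binds an element called RE1 made of a left part, CAGCACC, and a right part, GGACAGC. The Scg2 promoter window lies at chr1:79439977-79440276 on the minus strand of GRCm38.p6. It was picked for the largest called rise among neuronal list genes with the right part, so that part was fixed by the choice. Both parts adjoin in it with no base between them, in capitals on the reverse strand. Whether REST binds the parts at this spacing was not tested.
Scg2: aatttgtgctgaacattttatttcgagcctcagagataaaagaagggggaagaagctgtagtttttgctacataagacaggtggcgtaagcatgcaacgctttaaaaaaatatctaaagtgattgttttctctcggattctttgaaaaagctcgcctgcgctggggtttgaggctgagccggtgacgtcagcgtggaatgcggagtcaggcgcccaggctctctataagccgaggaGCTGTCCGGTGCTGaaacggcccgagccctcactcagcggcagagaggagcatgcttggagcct
The right part was found in 5 of 25 windows of the granule list (20.0%), against 7.44% of all windows, and in 9.30% of synaptic vesicle and 3.70% of sodium and calcium channel windows. The right part alone was no more frequent in the 1348 windows of genes called at least 4-fold higher (7.57%) than in all windows (7.44%). Both parts, at any spacing, order and strand within the window, were found in 1.41% of those 1348 windows, against 0.663% of all windows. Rtn1, another neuronal gene with a large rise (4.90), held the right part but no left part in the window chosen for it, which is not shown. The left part was added after the data had been seen, and elements outside these 300 bases are not counted.

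Genes of glutamate transmission were higher in 25 of 33 cases and lower in 1, with a median of 3.25. Slc17a6, the vesicular glutamate transporter VGLUT2, read 2.53 and 2.76 in NP and 9.43 and 9.62 in TN, 118-fold higher (adjusted p = 2.87e-08). Slc17a7, the transporter VGLUT1 of the mature cortex, read 3.08 and 3.10 in NP and 2.66 and 3.14 in TN (adjusted p = 0.400), and passed as lower without TN array b (-0.43, adjusted p = 0.0429). The AMPA receptor subunits Gria2 (6.26), Gria4 (6.31) and Gria1 (5.23) and the metabotropic receptor Grm7 (5.93) rose. Grm2 alone was lower (-0.88).

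Inhibitory transmission rose as broadly, in 19 of 20 measured genes with none lower and a median of 3.85. The glycine receptor subunit Glra2 went from 2.22 and 2.28 to 8.91 and 8.50, the GABA receptor subunits Gabra3 and Gabrb2 gained 5.61 and 5.28, and the glycine transporter Slc6a5 gained 5.04. Of the enzymes that make GABA, Gad1 rose from 4.64 and 4.67 to 8.63 and 9.09 and Gad2 from 3.22 and 2.77 to 4.77 and 5.91. The chloride extruder Slc12a5 (KCC2) rose from 5.09 and 5.81 to 11.35 and 11.05 (adjusted p = 8.69e-07). The chloride importer Slc12a2 (NKCC1) read 7.89 and 8.04 in NP and 7.94 and 7.91 in TN (-0.04, SE 0.14, adjusted p = 0.840).

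The cholinergic and monoamine list did not move one way, with 6 of 23 higher and 8 lower. The nicotinic receptor subunits of one gene cluster, Chrna3 (-3.24), Chrnb4 (-2.37) and Chrna5 (-1.50), fell while Chrna4 (1.98) and Chrnb2 (1.78) rose. Acetylcholinesterase, Ache, rose from 3.18 and 3.40 to 8.85 and 8.79. Ddc, which makes dopamine and serotonin from their precursors, fell from 7.39 and 6.67 to 2.66 and 2.91.

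Sodium, calcium and pacemaker channels were higher in 21 of 24 cases and lower in 1. Scn2a, a sodium channel of early axons, had the largest rise of all genes the naming rule covered, from 2.48 and 2.59 to 10.60 and 10.03 (7.78, SE 0.19, adjusted p = 3.01e-08), 220-fold. Scn3b (6.21), Scn3a (5.41), Scn1a (5.23) and the N-type calcium channel Cacna1b (5.35) followed. Of 28 potassium channels 19 were higher and 1 lower, with Kcnd2, of the A-type current, up from 3.04 and 2.96 to 9.40 and 8.95 and Kcnq3, of the M-current, up by 4.99. The 1 that fell was Kcnh2 (-1.01). Among 10 genes of neurotrophin and glial-factor signalling 8 were higher, among them Ntrk3 (4.30), Lingo1 (3.80) and the GDNF receptor parts Ret (2.23) and Gfra1 (2.17). Ntrk2, the BDNF receptor TrkB, rose by 1.68 on its brightest probe set and by 5.84, 6.17 and 6.73 on 3 dimmer ones. The ligand Gdnf was lower (-0.59), a call lost without NP array a (adjusted p = 0.286), TN array a (0.181) or TN array b (0.0774).

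Several switches between paralogs accompanied the step. Ptbp1, which blocks neuronal exons, fell from 10.77 and 10.67 to 7.98 and 7.95 (-2.75, adjusted p = 3.02e-07). The brightest probe set of its neuronal relative Ptbp2 read 10.44 and 10.38 in NP and 10.46 and 10.08 in TN (-0.14, adjusted p = 0.518), above its ES mean of 8.32, while its dimmer probe set differed by 2.10. Of the 16 splicing regulators 7 were higher, among them Rbfox1 (5.70), Khdrbs2 (2.63) and Nova1 (2.25), and 5 lower. In the BAF chromatin remodelling complex Actl6a, the progenitor subunit BAF53A, fell from 7.97 and 7.99 to 5.57 and 5.02, and Actl6b, the neuronal BAF53B, rose from 3.92 and 3.46 to 8.08 and 8.35. Likewise Ss18 (-1.83), Phf10 (-1.53) and Dpf2 (-1.04) fell and Ss18l1 (2.64), Dpf1 (2.13), Smarcd3 (2.42) and Smarcc2 (2.35) rose. The probe sets of a gene did not always move together. Another probe set of Actl6a differed by -2.34, and the last, almost as bright, by -0.18 and was not called. Dimmer probe sets of Ptbp1 (0.23), Phf10 (-0.32), Dpf2 (-0.09), Ss18 (0.08) and Ss18l1 (0.00) were not called. Others of Ptbp1 (-0.51), Ss18 (-2.43) and Dpf1 (0.63) were called in the same direction. Of 21 Polycomb and methylation genes 13 were lower, among them the methyltransferase Ezh2 (-2.84) and Cbx2 (-2.15), and 3 were higher, led by Cbx6 (1.79). The higher count was 5 under quantile normalization, under eBayes with trend and robust, and without TN array b.

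Rest itself read 7.76 and 7.49 in NP and 5.04 and 4.64 in TN, below an ES mean of 9.71. The difference of -2.79 (SE 0.17, adjusted p = 1.50e-06) is a 6.90-fold fall, and the 4 probe sets of the gene ranged from -0.18 to -2.79. Of 18 genes of the REST complex 13 were lower and 2 higher, with a median of -1.01. The corepressors Rcor2 (-2.52) and Hdac1 (-1.99) fell, and the relative Rcor3 rose (1.88).

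In metabolism, the glucose transporter Slc2a1 fell from 11.88 and 11.82 to 7.11 and 7.02 and hexokinase Hk2 from 9.88 and 9.75 to 4.40 and 5.58. Ldha fell by 2.70 and Pdk1 by 3.40. The neuronal enolase Eno2 rose by 4.76, the mitochondrial creatine kinase Ckmt1 by 3.99 and the coactivator Ppargc1a by 4.21, so that 10 of 23 genes of this list were higher and 10 lower. Of 15 genes of cholesterol synthesis 12 were higher and none lower, with Sqle, an early enzyme of the sterol branch, up by 1.63 and Cyp51 by 1.46.

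Markers of other cell types moved with the step, and their part in the results was not tested. In the endoderm and epithelium list 24 of 27 were lower and none higher, with a median of -3.28, and the summed linear signal was 12715 and 13402 in NP and 2073 and 3051 in TN. Krt18, a keratin of simple epithelia, fell from 11.31 and 10.69 to 4.16 and 4.80, Epcam from 9.91 and 9.30 to 3.61 and 3.65 and the tight junction protein Cldn6 from 9.21 and 8.95 to 3.37 and 3.81, and all 3 were also high in ES, with means of 9.74, 10.67 and 9.17. Of the 18 astrocyte markers 9 were higher and 4 lower, and the summed signal was 4542 and 6181 in NP and 6295 and 4617 in TN. Gfap read 3.51 and 3.32 in NP and 5.57 and 5.77 in TN, and Aldh1l1 3.34 and 3.43 and then 7.48 and 7.07. The secreted chaperone Clu fell from 10.82 and 11.73 to 7.53 and 7.65 and the gap junction protein Gja1 from 9.90 and 9.76 to 8.10 and 7.19. Of the 16 oligodendrocyte markers 9 were higher and 1 lower, and the sum was 674 and 678 in NP and 4124 and 2663 in TN. Olig1, of the oligodendrocyte lineage, rose from 6.30 and 5.71 to 11.14 and 10.21 and Gpr17, of its committed precursors, from 2.86 and 2.66 to 6.48 and 6.40. The mean of 6 members of that list stayed under 4 in TN, among them the myelin genes Mag, Mog and Mobp. In the fibroblast and matrix list 10 of 24 were higher and 9 lower, and the sum was 3592 and 4297 in NP and 4001 and 4086 in TN. The proteoglycan Dcn rose by 4.77 and the collagens Col6a3 and Col3a1 by 4.38 and 3.09, while the matricellular proteins Ccn2 and Ccn1 fell by 3.92 and 3.78, fibronectin, Fn1, by 2.10 and the protease inhibitor Timp1 by 1.91. Of 13 microglia and blood markers none was higher, and 12 had a TN mean under 4, Aif1, Ptprc and Cx3cr1 included. Of 11 endothelial markers 8 were under 4 in TN, with Pecam1 and Cdh5 among them. Of 20 muscle and mesoderm markers 9 were lower and none higher, with 7 under 4 in NP and 13 in TN, and the summed signal was 3632 and 2259 in NP and 518 and 605 in TN. The contractile proteins Myl9 and Tpm1 fell the most in that list, by 4.06 and 3.56. Of 12 neural crest and placode markers 2 were higher and 4 lower, and 8 were under 4 in TN.

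The progenitor to neuron step was also measured on the 18-array table, as RESThet neurons against RESTwt progenitors and as RESTko neurons against RESTko progenitors. The RESThet step changes the REST genotype, from wildtype to heterozygous, together with the stage. The tables were normalized apart, and array type, strain and this change of genotype cannot be told apart between them. The values therefore stand side by side, and no difference between the steps was tested. There 43.2% and 41.8% of the genes were called higher and 29.9% and 29.2% lower. Of the 16553 genes in both tables, 3820 were called higher in the mixed-strain wildtype, and 3433 of these (89.9% of them, and 49.5% of the 6933 called there) were also higher in the RESThet step and 77 were lower. Of 5107 called lower, 3870 (75.8% of them, and 70.5% of the 5488 called there) were also lower and 361 were higher. With the RESTko step 86.4% and 75.5% were shared.

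Some list medians lay close together in the tables and others apart. Over the members on both tables the sodium, calcium and pacemaker channels had a median of 3.40 in the mixed-strain wildtype and 3.31 in the RESThet step, the GABA and glycine genes 3.85 and 3.63, the granule genes 2.20 and 2.17 and the proneural factors -1.19 and -1.27. The mitosis median was -4.05 in the mixed-strain wildtype and -2.93 in the RESThet step, and the retinoid median -2.59 and -1.25. The endoderm and epithelium list stood at -3.28 and -1.08, and the potassium channels at 1.74 and 2.68. Rest differed by -2.79 here, by -0.45 in the RESThet step and by -0.10 in the RESTko step, whose cells are labelled REST knock-out at both stages. Lin28a differed by -5.36 and -0.94 and Fabp7 by 6.00 and 1.89, whereas Slc17a6 differed by 6.88 and 7.59 and Neurod1 by -3.62 and -3.60.

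**Figure D5:**
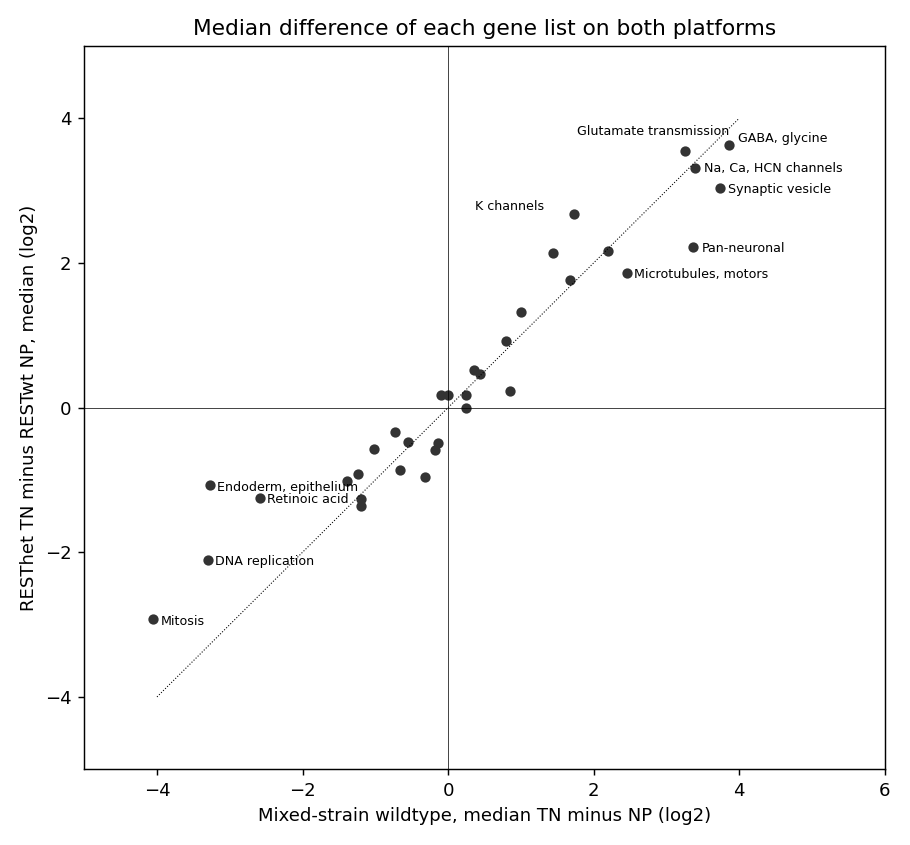
Median log2 difference between neurons and progenitors of each of 34 gene lists, over members measured in both tables, in the mixed-strain wildtype (x axis) and in RESThet neurons against RESTwt progenitors (y axis), with the dotted line at equal values. Of these lists, endoderm and epithelium lies farthest above the line, at -3.28 and -1.08, and the pan-neuronal list farthest below it, at 3.36 and 2.22.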

How the data were processed

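Total RNA of ES cells, NP and TN was measured on Affymetrix arrays. The labels' protocols name the whole transcript labelling manual for all samples, although the 6-array table is of another array type, so the labelling of these arrays is uncertain. The authors deposited log2 signals per probe set, made with oligo 1.14.0, per the submitters' processing notes; how background and array scale were treated is not given in the sources used here. Of 45101 probe sets, 34945 had 1 gene symbol, 932 several and 9224 none; 34741 were matched to GRCm38.p6 by gene number. The brightest probe set by mean stood for a gene.

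limma 3.58.1 in R 4.3.3 fitted 1 mean per stage to the 6 arrays (lmFit, eBayes), with Benjamini-Hochberg adjustment over 18193 genes. No tests were run on gene lists. The members and lists were chosen with earlier results of these data known. Named were the 15 largest differences in each direction among called genes with arrays that do not overlap, leaving out predicted genes, receptors of olfaction and small RNAs, then up to 5 called members per list and direction, and defining genes. Markers named for a mean under 4, genes named at the end of a family and genes called in opposite directions were chosen after their values were seen.

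The 18-array table was fitted alone, with 1 mean for each of its 6 groups of 3 arrays. Deviations of arrays with the same letter correlated at 0.09 (ES and NP), 0.03 (ES and TN) and 0.06 (NP and TN), so the letters were not taken as pairs. The alternatives covered the arrays fitted, the letter as a block, dim genes, the choice of probe set, quantile normalization, median centring, the prior variance and each NP or TN array left out. The script was tested on simulated data. The number of arrays limits the precision.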

Additional observations from a re-analysis of the deposited data

Results flagged for a closer look

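For 8 of the named genes, all called in both steps, the directions were opposite and the arrays did not overlap. The 2 TN arrays of the mixed-strain wildtype lay on one side of its NP arrays. The RESThet neurons lay on the other side of the RESTwt progenitors. This rule was not counted over all genes. By calls alone, 77 of 3820 genes called higher here and 361 of 5107 called lower were called the other way in the RESThet step. Array type, strain and the change of REST genotype within the RESThet step cannot be told apart here, and the difference was not tested. Sin3b, a scaffold of histone deacetylase complexes, differed by -2.05 (mixed-strain wildtype) and by 0.18 (RESThet step), and 2 of its 5 probe sets in the mixed-strain table were called in the other direction, at 0.99 and 2.15. Mitf, a pigment cell factor, differed by -0.86 and 0.91, and the guidance ligand Slit3 by -1.29 and 0.46. The TN mean of Mitf was 3.39 in the mixed-strain table, where its other probe set was not called (-0.29). The potassium channel Kcnh2 differed by -1.01 and 0.66, with -0.11 in the RESTko step. Cd14 differed by -1.37 and 0.37, Ifit3 by -0.52 and 0.35 and the sodium channel subunit Scn4b by -0.47 and 0.39, all with a TN mean under 4 in the mixed-strain table. The histone methyltransferase Ehmt2 differed by 0.61 and -0.23, and its other probe set in the mixed-strain table was not called (-0.18). Leaving out 1 array took the limma call from Scn4b (adjusted p = 0.106 without NP array b and 0.0957 without TN array b) and from Ehmt2 (0.0943 without NP array a and 0.0540 without TN array b).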

How the results depend on the processing

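Against 9241 called genes, the replicate block gave 9220, of which 9083 were shared, the 4 arrays alone 8911, and the other settings on genes 8824 to 9646. Leaving out 1 array gave 8192 to 8693 calls, which kept 87.1% to 90.1% of the genes. Median centring moved the median of all genes from -0.09 to -0.19 and the lower share of calls from 57.2% to 62.5%. Tested one by one, probe sets gave 18980 calls, 8978 higher and 10002 lower, with 5288 and 5500 at least 2-fold and 2374 and 1734 at least 4-fold, because more features were tested. At a difference of at least 1 in both tables the shared calls were 76.0% (higher) and 47.8% (lower) for the RESThet step and 68.2% and 47.2% for the RESTko step. Of 303 named genes 298 were called, largely by rule, since the naming picked called genes by the size of the difference. Of the 298, 274 kept direction and call under every one of the 12 settings that held them, and 24 lost the call in at least 1. These counts therefore do not stand for all 9241 calls. The setting without dim genes did not hold all the named genes. Ptbp2 reversed with the mean over its probe sets (0.98). Pou5f1 passed under median centring (-0.41, adjusted p = 0.0319). Of 80 list counts 19 moved by over 1.5 times, 7 of them only by leaving out 1 array; for lists of the report these were small counts, such as 3 lower glutamate genes without TN array b in place of 1. Under the block Csf1r alone of the named genes lost its call (adjusted p = 0.0557). Pairs of arrays limit what small differences can show, and dim probe sets carry no detection call.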

Other observations

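Families taken by gene symbol, outside the lists, moved as follows. No cytosolic ribosomal protein gene was called higher and 38 of 48 were lower, with a median of -0.79, and 67 of 73 mitochondrial ribosomal protein genes were lower, with a median of -0.99 (under quantile normalization 2 were higher). Of 43 proteasome subunits 32 were lower (median -0.69), of 40 translation initiation factors 31 (median -0.94), of 19 nucleoporins 17 (median -1.29) and of 19 nucleolar Nop and Utp proteins 17 (median -1.26). Of 9 spliceosome Snrp genes 8 were lower and Snrpn, an imprinted gene of neurons, was higher (0.78). These directions of the medians held under quantile normalization and under median centring, but quantile normalization moved the cytosolic ribosomal median to -0.49 and its lower calls to 28.

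Protocadherins, adhesion proteins of neurons, were higher in 23 of 35 cases and lower in 1, with a median of 1.09 and Pcdh17 at 6.17. Of 22 subunits of the vacuolar ATPase, which acidifies vesicles, 14 were higher and 2 lower, and Atp6v1g2, its neuronal subunit, rose by 5.25. Complex I of the respiratory chain had 8 of 34 members higher and 6 lower, with a median of 0.00 that turned to -0.10 under median centring, where 5 were higher and 8 lower. Rab GTPases were higher in 25 of 59 cases and lower in 13. Zfp zinc finger genes were higher in 75 and lower in 96 of 305 cases, beside 21.7% and 29.1% of all genes.

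In the fit of every probe set, 1465 of the 9160 with no symbol were called higher and 571 lower. Over all 45101 probe sets of that fit 8978 were called higher and 10002 lower. Calls of at least 2-fold in opposite directions in the mixed-strain wildtype and the RESThet step were made for 10 genes. Hint3 differed by -2.28 and 1.55, Apoa2 by -1.73 and 1.74 and Tln1 by 1.16 and -1.15. Ece2 differed by -3.53 and 2.38. For Ece2 and for Tln1, another probe set of the gene in the mixed-strain table was called in the other direction.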
